A study of Mus musculus with 4 samples.

Results

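The genes described here are 9 receptors and coupling genes of uterine contraction, namely Oxtr, Avpr1a, Chrm2, Chrm3, Adra1a, Hrh1, Rxfp1, Gja1 and Rgs2, taken by name from the 55421 genes counted in each library. RNA was sequenced from whole uterine lysates of pregnant mice at gestational age E18.5, with 2 WT and 2 Qa-2- mice. WT mice were of strain C57BL/6J. Qa-2- mice were of strain B6.Cg-H2b3/FlaCmwJ (B6.K1), which does not carry an engineered deletion of a single gene but arose spontaneously from crosses of H2 congenic strains on the C57BL/6 background. Both strains were mated syngeneically, and no other treatment or allele is given for these uteri. The comparison addresses whether the genes through which the late pregnant uterus receives contraction signals differ between these strains. Differences are given as WT over Qa-2-, so that positive log2 fold changes mark higher levels in WT uteri.

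Contraction of the myometrium, the smooth muscle layer of the uterus, starts at receptors on the muscle cell. Receptors for oxytocin, vasopressin, acetylcholine, noradrenaline and histamine that couple to Gq proteins activate phospholipase C, release calcium from internal stores and so switch on myosin light chain kinase. Receptors that couple to Gs proteins raise cAMP and relax the muscle. Gap junctions of connexin 43, the product of Gja1, join the muscle cells electrically, and near term both the oxytocin receptor and connexin 43 are known to increase.

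The total count lay between 33286390 and 41041299 read pairs per library, with both WT libraries deeper than both Qa-2- libraries. The Qa-2 genes H2-Q6 and H2-Q7 were counted at least 1192 times in each WT library and at most 4 times in each Qa-2- library. Several libraries stood apart in markers of other tissue. WT replicate 1 had 977 CPM (counts scaled to library size, with TMM factors) of Rbp4 against at most 14.5 CPM in the other libraries, and 109 CPM of the decidual prolactin gene Prl8a2 against at most 13.3 CPM. WT replicate 2 had a summed level of 20.9 CPM for 8 trophoblast markers against at most 4.17 CPM elsewhere, and Qa-2- replicate 1 had 373 CPM of Afp, a yolk sac gene, against at most 33.6 CPM elsewhere. The defining smooth muscle genes Acta2, Myh11 and Des had at least 2027 CPM in all 4 libraries. The summed level of 10 smooth muscle markers was 27583 and 45945 CPM in WT replicates 1 and 2 and 24808 and 13278 CPM in Qa-2- replicates 1 and 2, so that both WT libraries lay above both Qa-2- libraries. Of the 10 markers, 6 were higher in WT without overlap, as were 25.4% of all genes, whereas Myh11, Smtn, Synpo2 and Myocd overlapped. An unadjusted p under 0.05 by edgeR was found for 0 of the 10, against 15.2% of all genes. All 10 epithelial markers had a negative log2 fold change, with sums of 2363 and 1381 CPM in WT against 3221 and 3325 CPM in Qa-2- uteri. In whole tissue, fewer cells of a type and less RNA per cell cannot be told apart, and the part of these markers in the results was not tested.

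The filter of 1 CPM in 2 or more libraries let 7 of the 9 genes into the comparison across 14492 genes, while Avpr1a and Adra1a stayed below this limit. In the quasi-likelihood fit of edgeR, adjusted p-values under 0.05 were found for 0 of the 7 genes and for 0% of all genes. At the unadjusted level, Oxtr and Gja1 were higher and Rgs2 was lower in WT, which is 3 of 7 genes, where 15.2% of all genes had such a p (8.09% higher and 7.09% lower in WT). By DESeq2, Oxtr alone of the 7 genes was called, higher in WT, where 4.83% of all genes were called and 2.79% were called as higher in WT. Neither WT library overlapped with the Qa-2- libraries for Oxtr, Gja1, Rxfp1 and Rgs2, which is 4 of the 7 genes, and 50.0% of all genes had groups that did not overlap. The median log2 fold change of the 7 genes was -0.11, against 0.01 for all genes, since 3 were positive and 4 negative. An exact two-sided permutation test on 1 gene cannot reach a p below 0.33 with 2 uteri per group.

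**Figure D1:**
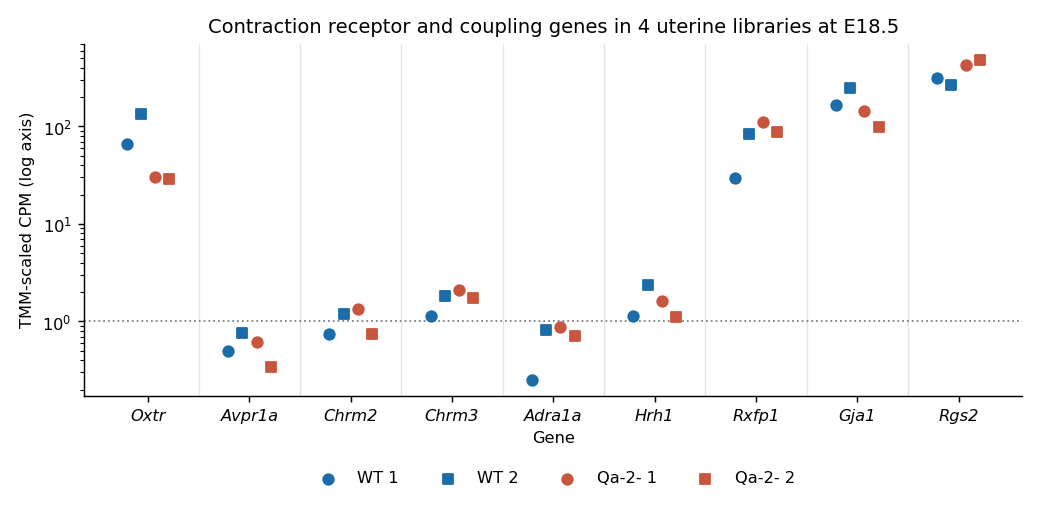
Level of the 9 genes in each uterine library (vertical axis, TMM-scaled CPM on a log axis), with WT in blue, Qa-2- in red, circles for replicate 1 and squares for replicate 2. Oxtr, Gja1, Rxfp1 and Rgs2 lie between 28.6 and 481 CPM, while the other 5 genes lie between 0.249 and 2.36 CPM around the dotted line at 1 CPM.

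Oxtr encodes the oxytocin receptor, through which oxytocin contracts the myometrium. It is ENSMUSG00000049112 on the minus strand of chromosome 6 of GRCm38, from 112473683 to 112489943, with 4790 exonic bases, and no other annotated gene overlaps it. Oxtr had 2672 and 5018 counts in WT replicates 1 and 2 and 1072 and 1002 counts in Qa-2- replicates 1 and 2. These counts correspond to 66.6 and 133 CPM in WT against 30.2 and 28.6 CPM in Qa-2- uteri. The Qa-2- libraries were nearly equal and both lay below the lower WT library, whereas the WT libraries differed from each other by a factor close to that between WT replicate 1 and the Qa-2- libraries. Mean levels were 99.8 ± 47.0 CPM for WT and 29.4 ± 1.10 CPM for Qa-2- (SD, n = 2 each), a ratio of 3.39. The log2 fold change was 1.76 (standard error 0.35, 95% interval 0.88 to 2.65, adjusted p = 0.246 by edgeR and 0.000338 by DESeq2). The log2 fold change was 1.18 without WT replicate 2 and 2.15 without WT replicate 1. By log2 fold change, 165 of the 14492 genes lay above Oxtr. Oxtr was chosen with its difference between these libraries already known, so its direction is not independent evidence.

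Gja1 encodes connexin 43, the gap junction protein that couples myometrial cells. It is ENSMUSG00000050953 on the plus strand of chromosome 10, from 56377330 to 56402513, with 10257 exonic bases. Gja1 had 166 and 246 CPM in WT replicates 1 and 2 against 143 and 99.8 CPM in Qa-2- replicates 1 and 2. The groups did not overlap, but WT replicate 1 lay nearer to Qa-2- replicate 1 than to WT replicate 2. Mean levels were 206 ± 56.2 CPM for WT and 121 ± 30.3 CPM for Qa-2- (SD, n = 2 each). The log2 fold change was 0.76 (standard error 0.29, 95% interval 0.03 to 1.50, adjusted p = 0.319 by edgeR and 0.172 by DESeq2), and it lay between 0.45 and 1.04 when each library was left out in turn.

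The stretches just upstream of Oxtr, Gja1 and Rgs2 are shown because these are the genes with the lowest unadjusted p-values of the 9. They come from RefSeq promoter windows on GRCm38.p6, 300 bases from 250 before the start of transcription, which were found for 7 of the 9 genes. Each is written 5′ to 3′ on the strand of its gene. The longer stretches end before the outermost start annotated by RefSeq or GENCODE, while the short E-box site of Oxtr lies upstream of the RefSeq start but inside the gene as GENCODE annotates it. Capitals mark an AP-1 motif (TGANTCA) or a CAGGTG E-box, read on both strands.
Gja1, chr10:56377050-56377299, plus strand: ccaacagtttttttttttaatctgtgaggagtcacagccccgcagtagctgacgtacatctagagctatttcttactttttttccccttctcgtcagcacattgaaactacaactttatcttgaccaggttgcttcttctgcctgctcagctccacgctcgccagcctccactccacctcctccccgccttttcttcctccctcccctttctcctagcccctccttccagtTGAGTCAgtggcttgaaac
Oxtr, chr6:112489944-112490075, minus strand: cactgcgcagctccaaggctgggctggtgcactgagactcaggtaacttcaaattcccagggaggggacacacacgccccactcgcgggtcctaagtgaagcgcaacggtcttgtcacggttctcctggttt
Oxtr E-box site, chr6:112489881-112489906, minus strand: ctcccatagaCACCTGgactgagcgc
Rgs2, chr1:144004162-144004399, minus strand: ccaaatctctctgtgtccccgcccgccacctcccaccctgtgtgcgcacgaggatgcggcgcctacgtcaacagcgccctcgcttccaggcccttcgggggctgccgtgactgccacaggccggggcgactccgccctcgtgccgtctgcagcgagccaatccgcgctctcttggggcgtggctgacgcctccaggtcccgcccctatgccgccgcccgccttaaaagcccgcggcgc

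AP-1, the Fos and Jun transcription factors, is a known activator of connexin 43 in the myometrium, and ZEB factors are known repressors that bind E-boxes of contraction genes. The window of Gja1 held 1 AP-1 motif, whose first base lay at -19 from the RefSeq start, and that of Oxtr held none. Of 32851 promoter windows of the same length, 7.81% held this motif. The window of Oxtr held 1 E-box, at -71 from the RefSeq start, and those of Gja1 and Rgs2 held none, where 20.2% of all windows held it. The stretch of Rgs2 was 71.8% G and C, against 59.1% for Oxtr and 50.0% for Gja1. A match describes the letters only.

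Rgs2 encodes a regulator of G-protein signalling that speeds the shut-off of Gq and so works as a brake on contraction. It is ENSMUSG00000026360 on the minus strand of chromosome 1, from 143999338 to 144004161, with 3627 exonic bases. Rgs2 had 311 and 266 CPM in WT replicates 1 and 2 against 432 and 481 CPM in Qa-2- replicates 1 and 2. Both Qa-2- libraries lay above both WT libraries, and the replicates of each group were close to each other. Mean levels were 288 ± 31.6 CPM for WT and 456 ± 34.7 CPM for Qa-2- (SD, n = 2 each), a ratio of 1.58 for Qa-2- over WT. The log2 fold change was -0.66 (standard error 0.21, 95% interval -1.21 to -0.11, adjusted p = 0.294 by edgeR and 0.0578 by DESeq2). It stayed between -0.80 and -0.56 when each library was left out in turn.

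Rxfp1 encodes the receptor for relaxin, a peptide hormone of pregnancy that acts through cAMP on connective tissue and smooth muscle. It is ENSMUSG00000034009 on the minus strand of chromosome 3, from 79641611 to 79737880, with 10052 exonic bases. Rxfp1 had 29.7 and 83.7 CPM in WT replicates 1 and 2 against 110 and 87.5 CPM in Qa-2- replicates 1 and 2. WT replicate 1 stood well below the other 3 libraries, and WT replicate 2 lay just below Qa-2- replicate 2. The log2 fold change was -0.80 (standard error 0.49, 95% interval -2.05 to 0.44, adjusted p = 0.474 by edgeR). Without WT replicate 1 it was -0.27, and without WT replicate 2 it was -1.74.

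Levels of different genes were compared per length, as TPM, in which counts are divided by exonic length and scaled to the same total in every library. Rgs2 was the most abundant of the 9 genes in every library, at 225 ± 12.8 TPM in WT (SD, n = 2) and 392 ± 18.3 TPM in Qa-2- uteri (SD, n = 2). In WT, Oxtr (59.8 ± 31.0 TPM) and Gja1 (57.4 ± 18.6 TPM) followed with overlapping ranges, and Rxfp1 (16.3 ± 11.6 TPM) lay below both. In Qa-2- uteri, Gja1 (37.1 ± 10.3 TPM) and Rxfp1 (30.8 ± 5.90 TPM) overlapped, and Oxtr (19.2 ± 1.29 TPM) lay below both. The order of Oxtr and Rxfp1 was therefore opposite in the groups. The level of Oxtr was 4.70 and 3.34 times that of Rxfp1 in WT replicates 1 and 2, and 0.575 and 0.687 times that of Rxfp1 in Qa-2- replicates 1 and 2. Similarly, the level of Rgs2 was 6.17 and 2.64 times that of Oxtr in WT and 18.9 and 22.2 times that of Oxtr in Qa-2- uteri. These ratios were chosen after the values were seen and were not tested.

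**Figure D2:**
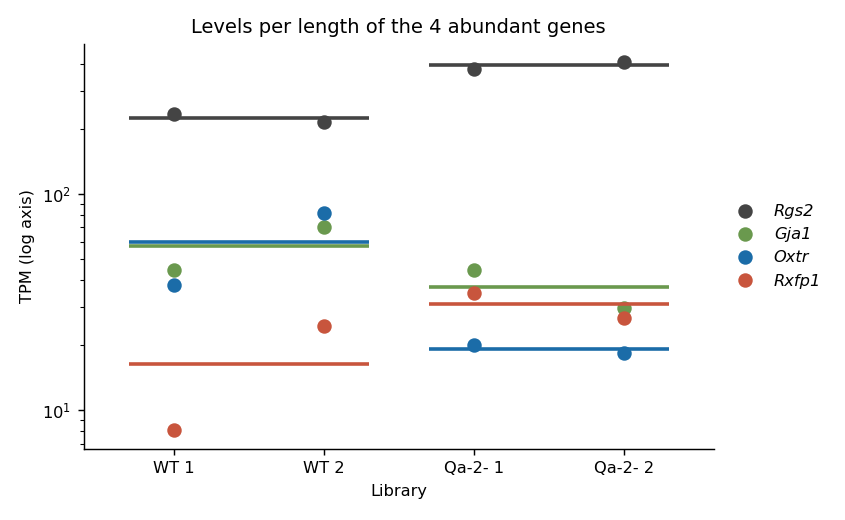
Level per length (vertical axis, TPM on a log axis) of the 4 abundant genes in each library, with points for libraries and lines for group means. Oxtr lies above Rxfp1 in both WT libraries and below it in both Qa-2- libraries, and Rgs2 lies above the other 3 genes in every library.

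The other 5 receptors were near the limit of 1 CPM, where 1 CPM stands for between 34.98 and 40.1 counts. Hrh1, the histamine receptor that couples to Gq, had 46 and 89 WT counts and 58 and 39 Qa-2- counts. Its groups overlapped at 1.15 and 2.36 CPM against 1.63 and 1.11 CPM, with a log2 fold change of 0.35 (95% interval -0.94 to 1.64, adjusted p = 0.772 by edgeR) that was -0.26 without WT replicate 2. Chrm3, the muscarinic receptor that carries the contractile response to acetylcholine in smooth muscle, had 46 and 69 WT counts and 75 and 61 Qa-2- counts. Its log2 fold change was -0.38 (95% interval -1.42 to 0.67, adjusted p = 0.689 by edgeR), with WT replicate 2 inside the range of the Qa-2- libraries. Chrm2, which couples to Gi proteins that lower cAMP, had 30 and 45 WT counts and 48 and 26 Qa-2- counts. Its log2 fold change was -0.11 (95% interval -1.42 to 1.19, adjusted p = 0.930 by edgeR), and 0.16 without WT replicate 1.

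Avpr1a, the vasopressin receptor that couples to Gq and is the nearest relative of Oxtr among the 9 genes, had 20 and 29 WT counts and 22 and 12 Qa-2- counts. Counting error alone allowed 0.304 to 0.770 CPM in WT replicate 1 and 0.177 to 0.599 CPM in Qa-2- replicate 2 (exact Poisson 95% intervals). Adra1a, the alpha-1A adrenergic receptor through which noradrenaline contracts smooth muscle, had 10 and 31 WT counts and 31 and 25 Qa-2- counts. WT replicate 1, with an exact Poisson 95% interval from 0.119 to 0.458 CPM, again lay below the other libraries. In the fit without a filter on low counts, the log2 fold change was 0.40 for Avpr1a and -0.56 for Adra1a, with adjusted p-values of 0.823 and 0.784 by edgeR. By TPM these 5 genes followed in the order Hrh1, Chrm3, Avpr1a, Chrm2 and Adra1a over all 4 libraries, from 1.05 to 0.231 TPM, and the ranges of neighbours overlapped except those of Chrm2 and Adra1a. Within the Qa-2- libraries alone, Chrm3 and Avpr1a did not overlap either. A difference between libraries within their counting intervals was not detectable at this depth.

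**Figure D3:**
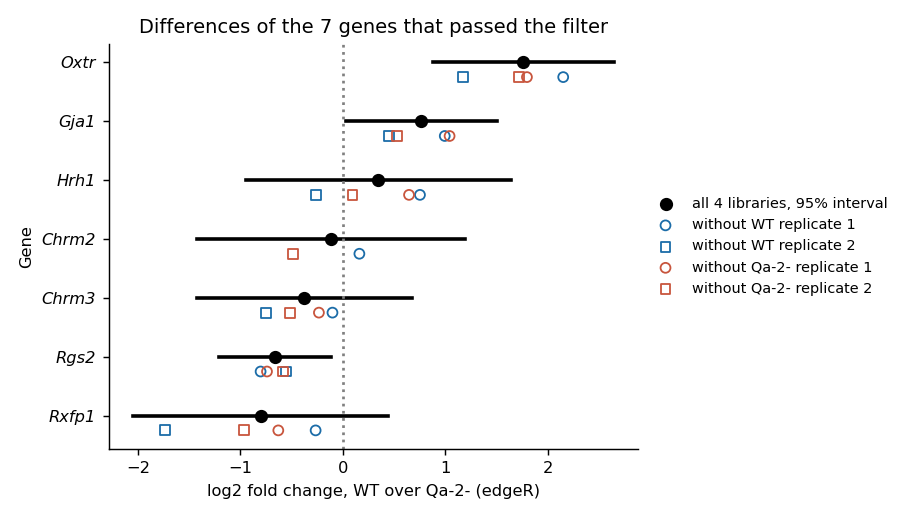
Log2 fold change (WT relative to Qa-2-) for the 7 genes that passed the filter (horizontal axis), with black points and bars for the fit to all 4 libraries and its 95% interval, and open symbols for fits that leave out 1 library. Oxtr lies between 1.18 and 2.15 and Rgs2 between -0.80 and -0.56 over these fits, whereas open symbols of Hrh1 and Chrm2 fall on both sides of 0.

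Because the smooth muscle markers differed between libraries, the 9 genes were also expressed per 1000 CPM of the 10 summed markers, a scaling added after the data were seen. Oxtr was then 2.41 and 2.90 in WT replicates 1 and 2 against 1.22 and 2.16 in Qa-2- replicates 1 and 2. WT remained above Qa-2- in both libraries, although WT replicate 1 and Qa-2- replicate 2 were close. Gja1 was 6.03 and 5.35 in WT against 5.75 and 7.52 in Qa-2- uteri, so that its groups overlapped on this scale. Rgs2 was 11.3 and 5.79 against 17.4 and 36.2, and Rxfp1 was 1.08 and 1.82 against 4.44 and 6.59, with Qa-2- higher in both libraries. Hrh1, Chrm3, Chrm2, Avpr1a and Adra1a, whose groups overlapped with TMM, were lower in both WT libraries on this scale, from 0.00903 to 0.0514 in WT and from 0.0250 to 0.131 in Qa-2- uteri. Of the 7 tested genes, 5 lay lower in WT without overlap (Hrh1, Chrm3, Chrm2, Rxfp1 and Rgs2), where 61.6% of all genes did so. With library sizes set to the summed markers, the median log2 fold change of all genes was -0.99, and the log2 fold changes were 0.65 for Oxtr, -0.22 for Gja1, -1.65 for Rgs2 and -1.93 for Rxfp1 (adjusted p = 0.485, 0.801, 0.266 and 0.238 by edgeR). Relative to that median, Oxtr and Gja1 lay above and Rgs2 and Rxfp1 below all genes, as they did with TMM.

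**Figure D4:**
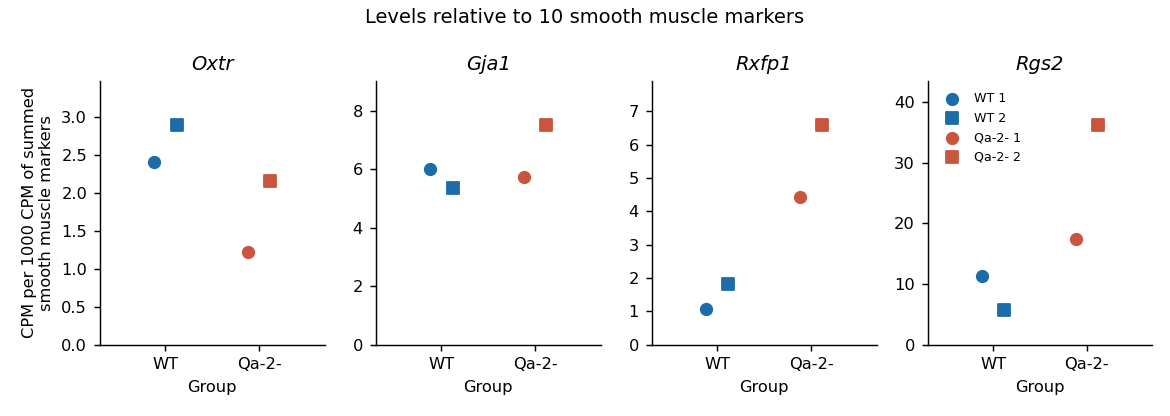
CPM of Oxtr, Gja1, Rxfp1 and Rgs2 per 1000 CPM of 10 summed smooth muscle markers (vertical axes, each from 0) in WT (blue) and Qa-2- (red) libraries, with circles for replicate 1 and squares for replicate 2. The groups overlap for Gja1, while Oxtr is higher in both WT libraries and Rxfp1 and Rgs2 are higher in both Qa-2- libraries.

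The ligands and other receptors of the same families were mostly near 0. Oxt, the oxytocin gene, had at most 0.106 CPM, Avp had 0 counts in all libraries, and the vasopressin receptors Avpr1b and Avpr2 had at most 0.113 CPM, where the floor of 3 counts is 0.0731 to 0.0901 CPM on the library totals. The only gene tested on the oxytocin and vasopressin list of 5 was Lnpep, the peptidase that degrades oxytocin, with 87.4 and 95.6 CPM in WT against 115 and 113 CPM in Qa-2- uteri (log2 fold change -0.32). Its groups did not overlap and its adjusted p was 0.391 by edgeR. Of the relaxin list of 7 genes, the hormone gene Rln1 had at most 0.106 CPM, Rxfp3 and Rxfp4 had at most 0.0282 CPM, and only Rxfp2 was tested. Its groups overlapped, at 8.12 and 3.18 CPM in WT against 2.87 and 3.32 CPM, and its log2 fold change was 0.87, with WT replicate 1 alone above the other libraries (edgeR, adjusted p = 0.454).

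On the muscarinic list, Chrm1, Chrm4 and Chrm5 had at most 0.141 CPM, and 5 of 11 genes were tested. The lowest log2 fold change was that of Bche, butyrylcholinesterase, which also splits acetylcholine, with 3.94 and 5.78 CPM in WT against 15.1 and 11.4 CPM (-1.45, adjusted p = 0.246 by edgeR and 0.00334 by DESeq2). The highest was that of the G-protein gene Gnao1, at 0.52. On the adrenergic list, 6 of 13 genes were tested, with a median log2 fold change of 0.52. Maoa, which encodes an enzyme that degrades noradrenaline, had 37.8 and 39.3 CPM in WT against 26.7 and 20.8 CPM (0.70, adjusted p = 0.271 by edgeR). Adra2a and Adra1d had log2 fold changes of -0.24 and 0.20, the former the lowest of the list, while Adra1b, Adra2b, Adra2c, Adrb1 and Adrb3 stayed below the filter at no more than 1.38 CPM. The highest was that of the noradrenaline transporter gene Slc6a2 at 2.91, which rested on 18.4 CPM in WT replicate 1 against 0.848 CPM in WT replicate 2 and 1.32 and 1.23 CPM in Qa-2- uteri, and was -0.61 without WT replicate 1.

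On the histamine list, Hrh2 had at most 1.07 CPM, Hrh3 and Hrh4 had at most 0.0564 CPM, and 3 of 6 genes were tested. All 3 had negative log2 fold changes. Hdc, the enzyme that makes histamine, had 11.0 and 6.36 CPM in WT against 12.3 and 16.4 CPM (-0.72), and Hnmt, which methylates it, had the value nearest to 0 (-0.28). Aoc1, diamine oxidase, which degrades histamine, had 21.1 and 9.25 CPM in WT against 34.6 and 290 CPM, and its log2 fold change of -3.42 (unadjusted p = 0.0223 by edgeR) was -1.20 without Qa-2- replicate 2. Of 7 mast cell markers, 6 were tested, with a median of -0.20 and sums of 60.4 and 85.7 CPM in WT against 91.4 and 73.4 CPM in Qa-2- uteri, which overlapped.

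Among the other connexins and Tjp1, 10 of 19 genes were tested, and 4 had an unadjusted p under 0.05 by edgeR, all higher in WT, as had 8.09% of all genes. Among them were Gja4 (37.5 and 30.9 against 16.1 and 13.95 CPM), Gja5 (62.4 and 46.0 against 24.5 and 15.6 CPM) and Gjb5, the highest of the list at a log2 fold change of 1.99, with at most 1.35 CPM. Gja4 and Gja5 are known connexins of blood vessel endothelium, and all 8 endothelial markers were higher in both WT libraries, with sums of 1254 and 1090 CPM against 555 and 536 CPM, where groups that did not overlap, with WT higher, were found for 25.4% of all genes. The part of the endothelium in these connexins was not tested. The epithelial connexin Gjb2 had 64.4 and 31.8 CPM in WT against 73.8 and 101 CPM (log2 fold change -0.86). The median over the 10 genes was 0.00.

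On the list of RGS proteins, receptor kinases and arrestins, which shut off receptor signals, 12 of 13 genes were tested and 11 had positive log2 fold changes, in contrast to the negative value of Rgs2. The median was 0.45. At an unadjusted p under 0.05 by edgeR, 5 genes were higher in WT, namely Rgs1, Rgs3, Rgs4, Rgs16 and Grk5, and Grk3 was lower at -0.82, the lowest of the list, where 8.09% of all genes were higher and 7.09% lower at that level. Rgs4, at 2.43 the highest, had 17.02 and 43.7 CPM in WT against 6.93 and 4.29 CPM in Qa-2- uteri, with a value of 1.60 without WT replicate 2. Rgs16 had 10.04 and 7.42 CPM against 1.86 and 1.63 CPM (log2 fold change 2.32). No gene of the list had an adjusted p under 0.05 by edgeR, while DESeq2 called Rgs1, Rgs4 and Rgs16, all higher in WT, as were 2.79% of all genes by DESeq2. Both Rgs4 and Rgs16 also act on Gq.

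The lists below the receptors hold the signalling machinery that they share. All 15 genes of Gq signalling were tested, with a median log2 fold change of -0.03, from -0.77 for the calcium release channel gene Itpr3 to 0.32 for the kinase gene Prkca. Gnaq, which encodes the Gq protein itself, had 109 and 158 CPM in WT against 128 and 102 CPM. Of these 15 genes, 1 had an unadjusted p under 0.05, Itpr2, at -0.52. On the myosin coupling list, all 13 genes were tested with a median of 0.39, from -0.28 for Gna13 to 0.92 for the myosin light chain gene Myl9, and the single gene with an unadjusted p under 0.05 was Ppp1r14a, an inhibitor of myosin phosphatase, with 70.8 and 95.04 CPM against 50.1 and 38.8 CPM. On the list for Gs and cAMP, all 19 genes were tested with a median of 0.21, of which 3 were higher and 1 was lower in WT at an unadjusted p under 0.05 by edgeR (8.09% and 7.09% of all genes). The range ran from Adcy1, an adenylyl cyclase with 1.10 and 1.80 CPM in WT against 5.80 and 8.78 CPM (-2.33, adjusted p = 0.246 by edgeR and 8.2e-05 by DESeq2), to Adcy8, with 5.03 and 7.32 CPM against 3.24 and 1.46 CPM (1.39).

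**Figure D5:**
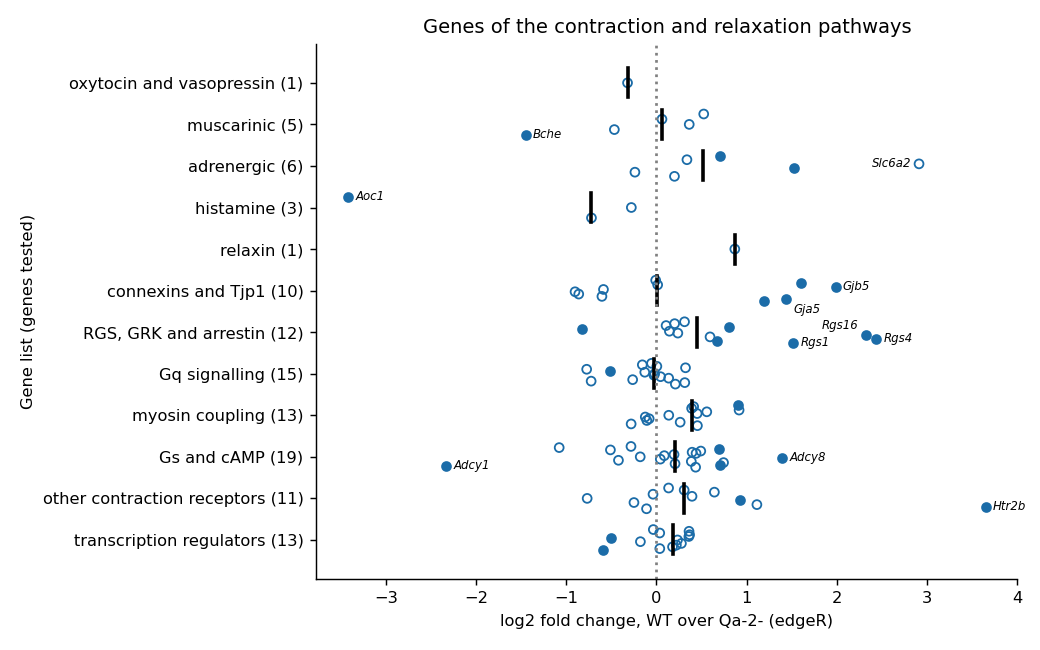
Log2 fold change, WT relative to Qa-2- (horizontal axis), for the tested genes of 12 lists, with a point per gene, filled where the unadjusted p is under 0.05 by edgeR, and a bar at the median of each list. The medians of lists with at least 10 tested genes lie between -0.03 and 0.45, and the labelled points are genes described with their values.

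Over the 12 lists together, 109 of 151 genes were tested, and edgeR called 0 of them. At an unadjusted p under 0.05, 17 genes (15.6%) were higher and 7 genes (6.42%) were lower in WT, against 8.09% and 7.09% of all genes. DESeq2 called 11 of them, 9 higher and 2 lower in WT, or 10.1% against 4.83% of all genes. The median log2 fold change of the 109 genes was 0.20.

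The genes whose pattern over the 4 libraries was most like that of Oxtr were found by the root mean square difference of centred log2 CPM among 14392 genes with a mean of at least 1 CPM. They were Gpr1 (0.0857), Hist1h1d (0.138), Gm48898 (0.150), Angptl7 (0.172) and Tmem200a (0.183). Angptl7, for example, had 321 and 524 CPM in WT against 165 and 142 CPM in Qa-2- uteri. Of the other contraction genes, Gja1 was the nearest at 0.507, with 354 genes in between, and Rxfp1 was the farthest at 1.34, with 13243 genes nearer to Oxtr. With 4 libraries this is a description of likeness only.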

How the data were processed

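RNA of whole uteri was measured in 2 WT and 2 Qa-2- libraries, which carry poly(A)-selected, strand-specific RNA. The authors deposited raw counts, 1 per read pair, for every gene. Per the file headers, featureCounts 2.0.0 counted pairs on exons of GRCm38 on the reverse strand, requiring both ends to map and a minimum mapping quality of 3, and the submitters' processing notes name STAR 2.7.3a and GRCm38.p6. Of 55421 identifiers, 55240 were found in GENCODE M21, which gave the symbols.

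A filter worded as in the study's methods, 1 CPM or more in 2 or more libraries, left 14492 genes when applied to these counts, which is not the number of genes that the study kept. Because these methods name no test for the transcriptome, edgeR 4.0.16 (TMM, glmQLFit with package defaults, glmQLFTest) in R 4.3.3 was used with Benjamini-Hochberg adjustment over all genes kept. Standard errors and 95% intervals come from its F statistic. TPM were computed from the exonic lengths in the files. Counting intervals and the floor of 3 counts cover counting error only.

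Replicates come from the sample labels, which state nothing on pairing. Within groups, libraries differed beyond sampling noise (chi-square per gene of 241 in WT and 151 in Qa-2-). The steps were tested on simulated counts. Alternatives were DESeq2 1.42.0, other normalizations and filters, leaving out each library, a fit robust to outliers, a block for replicate number, and dropping haemoglobin and mitochondrial genes. Added after the data were seen were a crossed block, glmQLFit with legacy set to false, and scaling to smooth muscle markers.

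The 9 genes and all lists were chosen with earlier results of these data known. Named are the 9 genes, the Qa-2 genes, related receptors and ligands, genes called and the highest and lowest log2 fold change of each of 12 pathway lists, and the 5 genes most like Oxtr (pseudocount 0.1 CPM). Other named genes, namely Gnaq, Maoa, Gjb2, Gja4, Gja5, Hdc, Itpr2, Ppp1r14a, Rgs1, Rgs3, Rgs16, Grk5, F2r, Fosl2, Pgr, Zeb1, Zeb2, the tachykinin receptor genes and the marker genes given with values, were chosen after their values were seen. Some genes that this rule names are not reported here. Marker lists of 13 cell types were also summed.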

Additional observations from a re-analysis of the deposited data

How the results depend on the processing

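Causes of the changes given here were not tested. With 4 libraries and TMM, edgeR called 0 genes, with 2199 genes at an unadjusted p under 0.05, whereas DESeq2 called 700 genes, among them 1 of the 9 contraction genes (Oxtr, log2 fold change 1.75) and 11 pathway genes. Without a filter edgeR called 61 genes, among them 1 pathway gene (Rgs16). With scaling to smooth muscle markers, under which the median log2 fold change of all genes was -0.99, edgeR called 192 genes, among them the pathway genes Adcy1, Aoc1 and Htr2b and no contraction gene. Leaving out each library in turn gave 0 to 45 genes and 0 to 2 pathway genes, both maxima without WT replicate 2 (Htr2b and Slc6a2), and 0 of the contraction genes. These fits assume that the lone library of a group varies like the others. Over them the median of the contraction genes lay between -0.48 and 0.21, without Chrm2 where WT replicate 2 or Qa-2- replicate 1 was left out, since it then failed the filter. With the replicate block 2 genes and no contraction gene were called. The deviations of same-numbered samples had a correlation of -0.37, which with 2 libraries per group cannot settle whether the numbers pair them. The crossed pairing called 0 genes.

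Of 103 refitted log2 fold changes of the 7 contraction genes, 98 kept direction and side of the threshold. The sign turned for Chrm2 without WT replicate 1 (0.16), for Hrh1 without WT replicate 2 (-0.26, against up to 0.75 without other libraries), and with scaling to smooth muscle markers for Gja1 (-0.22) and Hrh1 (-0.68), both of which lay above the median of all genes on that scale. Over 10 alternatives with all libraries and that scaling aside, Oxtr lay between 1.66 and 1.77, with an adjusted p from 0.000338 to 0.424. Hrh1, Chrm2, Chrm3, Avpr1a and Adra1a had at most 89 counts per library, but the standard error of Hrh1 (0.51) was close to that of Rxfp1 (0.49), which had at least 1192 counts.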

Other observations

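On a list of 17 further receptors that act on contraction, 11 genes were tested, with a median log2 fold change of 0.31, and 2 had an unadjusted p under 0.05 by edgeR, both higher in WT, where 8.09% of all genes were higher and 7.09% lower at that level. F2r, the thrombin receptor, had 168 and 116 CPM in WT replicates 1 and 2 against 81.8 and 68.4 CPM in Qa-2- replicates 1 and 2 (log2 fold change 0.92, adjusted p = 0.267 by edgeR and 0.0365 by DESeq2). Htr2b, a serotonin receptor that couples to Gq, had the highest value, 3.65, from 28.7 and 3.45 CPM in WT against 1.16 and 1.40 CPM. Without WT replicate 1, the library that also stood apart in Rbp4, Prl8a2 and Slc6a2, the value of Htr2b was 1.40. F2rl1, the second protease-activated receptor, had the lowest value, -0.77, with 44.3 and 21.8 CPM in WT against 63.2 and 49.3 CPM. The tachykinin receptor genes Tacr1, Tacr2 and Tacr3 had at most 0.623 CPM.

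Of 13 genes for transcription factors that are known to act on contraction genes, all were tested, with a median of 0.18, and Esr1 and Fosl2 had an unadjusted p under 0.05 by edgeR, both lower in WT, where 7.09% of all genes were lower and 15.2% passed in either direction. Esr1, the estrogen receptor alpha gene, was the lowest, with 224 and 273 CPM in WT against 349 and 403 CPM in Qa-2- uteri (log2 fold change -0.60, adjusted p = 0.314 by edgeR). The progesterone receptor gene Pgr had 175 and 279 CPM in WT against 247 and 195 CPM, which overlapped. Fosl2, a partner in AP-1, had 221 and 205 CPM against 279 and 324 CPM (-0.50), and Junb, the highest of the list, had 99.9 and 94.7 CPM against 64.0 and 86.8 CPM (0.37). The repressor genes Zeb1 and Zeb2 had log2 fold changes of 0.18 and 0.22, with overlapping groups.

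Of the cell type markers not yet described, those of erythroid cells had sums of 349 and 688 CPM in WT against 109 and 72.4 CPM in Qa-2- uteri, with all 4 tested genes higher in WT at an unadjusted p under 0.05 by edgeR, a level at which 8.09% of all genes were higher. Those of leukocytes had 699 and 788 CPM against 430 and 419 CPM, with 2 of 5 tested genes higher at that level. Most of this sum was Lyz2, with 534 and 594 CPM against 293 and 292 CPM, whereas the pan-leukocyte gene Ptprc was lower in both WT libraries, with 33.5 and 38.7 CPM against 44.5 and 45.9 CPM. Those of mesothelium had 123 and 133 CPM against 104 and 57.9 CPM, with 3 of 4 genes higher at that level. Wt1 was the largest part of this sum and overlapped between groups, whereas Upk3b had 23.7 and 17.1 CPM in WT against 2.11 and 1.69 CPM, and Lrrn4 had 4.83 and 2.33 CPM against 0.254 and 0.143 CPM. Stromal and decidual markers had 10285 and 18100 CPM against 17918 and 9382 CPM, which overlapped. Most of this sum was Col1a1, and of the 8 genes 1 was lower and 4 were higher in WT without overlap (24.5% and 25.4% of all genes), of which Lum, Hand2 and Hoxa10 had an unadjusted p under 0.05 by edgeR. Those of pericytes had 579 and 961 CPM against 598 and 466 CPM, which overlapped too. Nerve and glia markers had 150 and 186 CPM against 132 and 114 CPM. Uchl1 had 74.7 and 121 CPM against 26.3 and 11.5 CPM, while Ncam1 had 74.3 and 61.7 CPM against 103 and 99.98 CPM. Of the 3 tested genes, 2 had negative log2 fold changes. Skeletal muscle markers had 139 and 279 CPM against 136 and 114 CPM. Most of this sum was Acta1, and the other 2 tested genes had negative log2 fold changes. Yolk sac markers had 983 and 57.8 CPM against 489 and 33.6 CPM. Rbp4 alone had 977 CPM in WT replicate 1, while 3 of 4 tested genes had negative log2 fold changes (median -2.95). The part of all these markers in the levels of the contraction genes was not tested.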
